A study of Mus musculus with 6 samples.

Results

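The genes described here encode the proteins of the cytosolic ribosome. They were taken by symbol from the 24421 genes counted in sciatic nerve of mice, the large nerve that supplies the hind limb: names beginning Rpl (large subunit) or Rps (small subunit) followed by a number, or the stalk genes Rplp0 to Rplp2, with at least 10 counts in 3 or more libraries. Of 80 rows with such a name, 79 met that count, 48 of the large and 31 of the small subunit, and all 79 passed the filter of the test. The row left out was Rpl10l, a copy of Rpl10 known from testis, with 0 counts in every library, which allows a level of up to 0.0638 to 0.122 CPM (counts scaled to library size, taking 3 counts as the limit and counting error only). The pattern leaves out some true ribosomal proteins with other names, such as Rpsa and Fau, which were followed as a separate list.

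Total RNA of sciatic nerve was sequenced in 3 libraries of mice labelled YAP/TAZ-DBL-cKO (cKO 1 to 3) and 3 of mice labelled WT (WT 1 to 3), with 3 mice per genotype by the series' design text. YAP and TAZ are the co-activators of transcription that the Hippo pathway restrains. The labels do not spell out cKO, and the sources used here do not give what drives the deletion, which parts of the genes it removes, how old the mice were or whether nerves were pooled. Whole nerve was measured, so a change in the number of cells of a type and a change in RNA per cell cannot be told apart.

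A ribosome consists of a large subunit, which forms peptide bonds, and a small subunit, which reads the mRNA. Each ribosome holds one copy of nearly every ribosomal protein, and the genes are expressed together in almost all cells. Their mRNAs are short, and most begin with a tract of pyrimidines (C and T) called the 5′ terminal oligopyrimidine or TOP tract, through which the kinase mTORC1 and the protein LARP1 control their translation. In Schwann cells, the glia of the nerve, mTORC1 activity is tied to growth and to the making of myelin.

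A sequence feature that most of these genes share lies near their start sites. RefSeq promoter sequences (GRCm38.p6, the assembly also called mm10) were found for 59 of the 80 names. A run of at least 8 bases made only of C and T, on the transcribed strand and reaching into the stretch from 20 bases before to 50 bases after the annotated start, was present for 48 of these 59 genes (81.4%), against 31.14% of the 27025 genes of the table. The run length of 8 was chosen after run minimums of 6 to 10 had been looked at in 2 windows, and the members' share was above that of all genes in all 10 settings. Within 10 bases of the start, runs of 8 were present for 47.5% of the members and 15.8% of all genes. At the strictest, runs of 10 within 10 bases of the start, the shares were 37.3% and 8.1%. The runs occurred in 31 of 37 large and 17 of 22 small subunit genes. Windows of 30 bases run from 10 before to 20 from the start onward. They are shown for Rplp2 of the P stalk, for Rps6, a substrate of the mTOR pathway, and for 4 other members. Each of these windows holds a run. The muscle copy Rpl3l is shown as a member without a run in its window. Capitals mark C and T runs of at least 8 bases.
Rps6 (chr4:86857348-86857377, minus strand): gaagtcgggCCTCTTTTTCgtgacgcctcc
Rplp2 (chr7:141447641-141447670, plus strand): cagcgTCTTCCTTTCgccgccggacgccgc
Rpl28 (chr7:4792955-4792984, plus strand): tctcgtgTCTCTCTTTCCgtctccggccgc
Rpl35 (chr2:39005112-39005141, minus strand): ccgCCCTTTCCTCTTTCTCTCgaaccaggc
Rpl15 (chr14:18270967-18270996, minus strand): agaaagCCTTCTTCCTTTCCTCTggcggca
Rps10 (chr17:27635225-27635254, minus strand): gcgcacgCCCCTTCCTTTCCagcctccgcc
Rpl3l (chr17:24727816-24727845, plus strand): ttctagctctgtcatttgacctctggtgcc
The Rpl3l window holds no such run, although one of 9 bases lies further downstream in its searched stretch, so Rpl3l is counted among the 48. The lack is not particular to Rpl3l. Rpl10 and Rpl41 also have no run in the window, and Rplp0 and Rps28 have none in the searched stretch. Over the whole promoter of 300 bases and both strands, the letters CCGGAAG, the core bound by ETS family factors, were found for 24 of the 59 genes (40.7%) and for 9.93% of all genes. TATAAA was found for 6 (10.2%) and for 15.67% of all genes. CATTCC, the core of the site bound by TEAD factors, the DNA-binding partners of YAP and TAZ, was found for 6 (10.2%) and for 16.58% of all genes. CTCGCGAGA was found for 11.9% and for 0.8% of all genes. These 4 were picked from 12 motifs after all the shares had been seen. The matches describe letters in a window and not binding.

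The libraries held 24651262 to 47044158 gene counts, with every WT library deeper than every cKO library. Yap1, which encodes YAP, was at 102.6 to 108.8 CPM in the cKO and 120.4 to 123.7 CPM in the WT libraries (log2 -0.20 ± 0.08, edgeR adjusted p = 0.145). Wwtr1, which encodes TAZ, was higher in the cKO libraries, at 337.4 to 372.0 against 253.8 to 284.2 CPM (log2 0.40 ± 0.09, edgeR adjusted p = 0.0208). Whole-gene counts in whole nerve do not show which exons or cells lost a gene. The targeted genes therefore neither check nor bear out the labels, and the Wwtr1 count was higher in the libraries labelled cKO. Below, cKO and WT mean the libraries labelled so, for every direction given. Markers of myelinating Schwann cells were present in all 6 libraries, with 0 of 14 at 0 counts, and 11 of the 14 fell in the cKO libraries (edgeR's quasi-likelihood test, Benjamini-Hochberg adjusted p under 0.05). Their summed level was 23754 to 36794 CPM in the cKO and 85263 to 119069 CPM in the WT libraries. Skeletal muscle transcripts moved the other way: 19 of 22 rose, and 0 of 22 were at 0 in any library. Their sum was 5211 to 11293 CPM in the cKO and 534.1 to 1993 CPM in the WT libraries. By the same test 4.77% of all genes rose and 6.17% fell.

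As a family, the ribosomal protein genes lay slightly higher in the cKO libraries by their estimates. The groups overlapped on the scale used here, and 2 members passed the test. Their summed level was 90378, 70120 and 74801 CPM across cKO 1 to 3 and 64509, 65538 and 73314 CPM across WT 1 to 3. These levels use library sizes adjusted by TMM factors (0.92 in WT 3 and 1.04 in cKO 2). On that scale the groups overlapped, because WT 3 lay above cKO 2, and cKO 1 stood above all other libraries. As a share of unadjusted gene counts, the members held 9.37%, 7.30% and 7.89% across cKO 1 to 3. The share was 6.34%, 6.35% and 6.75% across WT 1 to 3, so without the factors the groups did not overlap. The means were 78433 ± 10606 CPM (SD, n = 3) in cKO and 67787 ± 4814 CPM (SD, n = 3) in WT, a log2 ratio of 0.21. Without cKO 1 that ratio was 0.09, and without WT 3 it was 0.25.

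**Figure D1:**
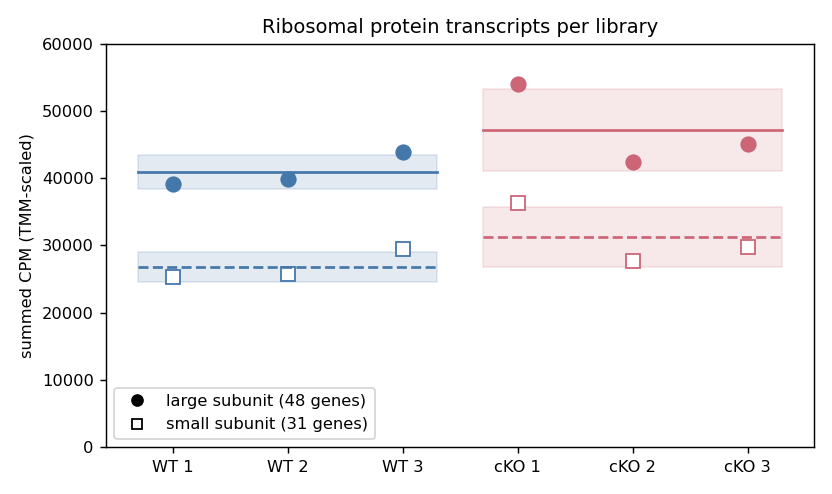
Summed TMM-scaled CPM of the 48 large (filled circles) and 31 small (open squares) subunit genes in each library, with the group mean as a line and ± 1 SD as a band. In both subunits cKO 1 is highest, and WT 3 lies above cKO 2 (large: 43900 against 42439; small: 29414 against 27681).

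Of the 79 genes, 2 were called higher and 0 lower, Rpl36 and Rpl3l (edgeR, adjusted p under 0.05), while 10.9% of all 14789 tested genes were called (4.77% higher, 6.17% lower). The median log2 fold change was 0.22 for the 79 genes and 0.02 for all tested genes. An unadjusted edgeR p under 0.05, all with the higher level in cKO, was found for 19 of the 79, against 12.1% of all genes in that direction. Counting both directions, the members' share was no higher than that of all genes: 19 of 79 against 3641 of 14789. The estimate was above 0 for 77 of the 79, against 53.7% of all genes, with the quartiles of the members at 0.16 and 0.28. Because the genes vary together from library to library, these 77 estimates are not separate observations. The 3 cKO libraries all lay above the 3 WT libraries for 19 of the 79 genes, 14 large and 5 small, against 15.3% of all genes. The reverse occurred for 0 of the 79, against 15.8% of all genes. The other 60 overlapped between the groups. These counts also rest on the TMM-adjusted levels.

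The shift was small for each gene. Among the 71 members that are neither restricted copies nor counted at under 100 CPM, the estimates ran from 1.02-fold for Rpl10 to 1.40-fold for Rpl36. The 95% intervals of all 71 ended below a log2 fold change of 1, with the highest upper limit at 0.79 and the lowest lower limit at -0.37. A log2 fold change of 1 was therefore outside each of these intervals, and the members' median of 0.22 was inside all 71. The intervals are not adjusted for the number of genes. DESeq2 called 7 members and edgeR with total counts in place of TMM scaling called 16, all of them higher. Of all 14789 genes DESeq2 called 2254 (997 higher, 1257 lower). Total counts called 1879 of them (1273 higher, 606 lower). With total counts the median of the members was 0.34 and that of all genes 0.15.

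**Figure D2:**
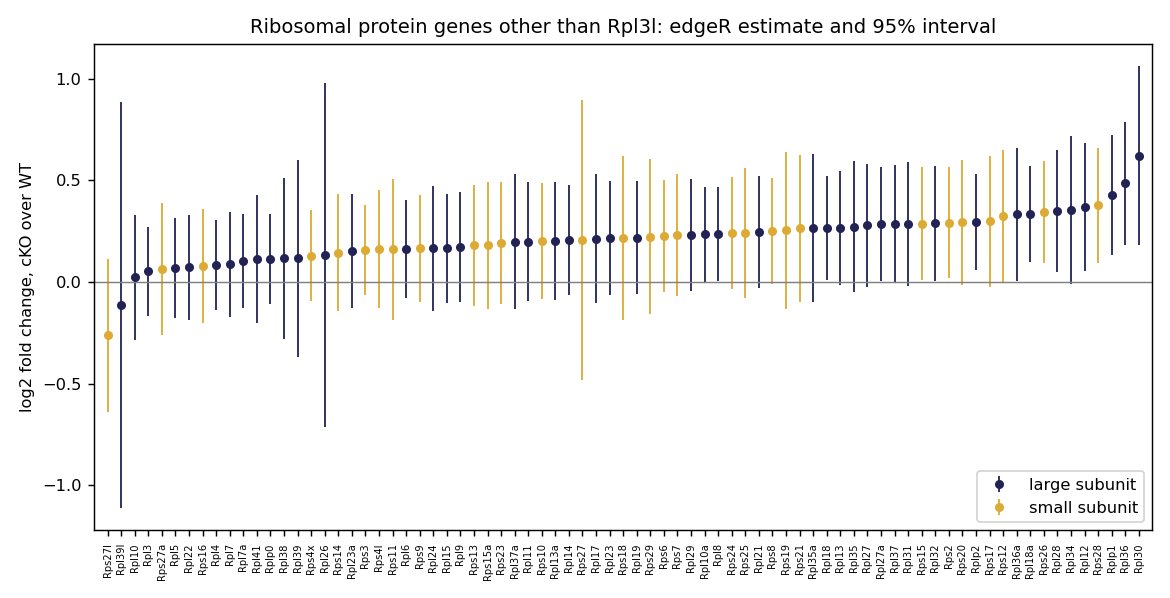
Log2 fold change of 77 genes (cKO over WT, edgeR) with 95% intervals, ordered by estimate and coloured by subunit. Rpl3l is left out for scale, and the widest intervals belong to rows with few counts (Rpl39l, Rpl26, Rps27); only Rps27l and Rpl39l have estimates below 0.

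The 2 subunits had the same median. The median log2 fold change was 0.22 for the 48 large subunit genes, with 2 called, and 0.22 for the 31 small subunit genes, with 0 called (5 of these 31 had an unadjusted edgeR p under 0.05, and DESeq2 called 2). The ratio of the summed large to the summed small subunit CPM was 1.49, 1.53 and 1.51 in cKO 1, 2 and 3 and 1.54, 1.55 and 1.49 in WT 1, 2 and 3. The ratio was 1.51 ± 0.02 in cKO and 1.53 ± 0.03 in WT (SD, n = 3 each), and the lowest values were in cKO 1 and WT 3.

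The order of the values followed single libraries. Library cKO 1 was the highest of the 6 for 74 of the 79 genes, and WT 1 or WT 2 was the lowest for 70. Within the groups, cKO 1 was the highest cKO library for 75 genes and WT 3 the highest WT library for 68. On the TMM-adjusted scale, WT 3 lay above cKO 2 for 59 genes and above cKO 3 for 36. The median gene lay 0.31 higher on the log2 scale in cKO 1 than in the mean of cKO 2 and cKO 3, and 0.21 higher in WT 3 than in the mean of WT 1 and WT 2. The WT 3 step was about as large as the median difference of 0.22 between the genotypes, and the cKO 1 step was larger. The share of reads that fell on more than 1 gene was also highest in cKO 1, at 2.82% against 1.64% to 2.12% in the other libraries. In WT 3 some markers of other cells of the nerve were higher than in WT 1 and WT 2. The 9 adipocyte markers summed to 755.2 CPM against 162.8 and 169.0. The 11 macrophage markers summed to 695.4 against 510.9 and 507.5, and the 9 endothelial markers to 554.1 against 376.1 and 359.8. All 3 cKO libraries also lay above WT 1 and WT 2 for these sums. They stood at 488.5 to 692.5 CPM for the adipocyte, 632.3 to 662.4 CPM for the macrophage and 487.0 to 562.4 CPM for the endothelial markers. WT 3 was the highest of the 6 libraries for the adipocyte and macrophage sums. Library cKO 1 was the lowest cKO library for the adipocyte and endothelial sums. The fibroblast and neuron sums also placed WT 3 and the cKO libraries above WT 1 and WT 2, but the perineurial and erythroid sums did not. The perineurial sum was 219.2 to 251.5 CPM in cKO and 233.0, 208.0 and 304.2 CPM across WT 1 to 3. The erythroid sum was lowest in WT 3, at 59.2 CPM. In the adipocyte, macrophage and endothelial lists edgeR and DESeq2 called 0 markers. An unadjusted edgeR p under 0.05 was found for 0 of 9 adipocyte, 3 of 11 macrophage and 2 of 9 endothelial markers. It was found for 3641 of all 14789 genes. The part of the marker differences in the members' values was not tested. When cKO 1 and WT 3 were both left out, 16 members were called, 15 of them higher, but those libraries were picked by the members' own levels, so that count supports nothing.

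**Figure D3:**
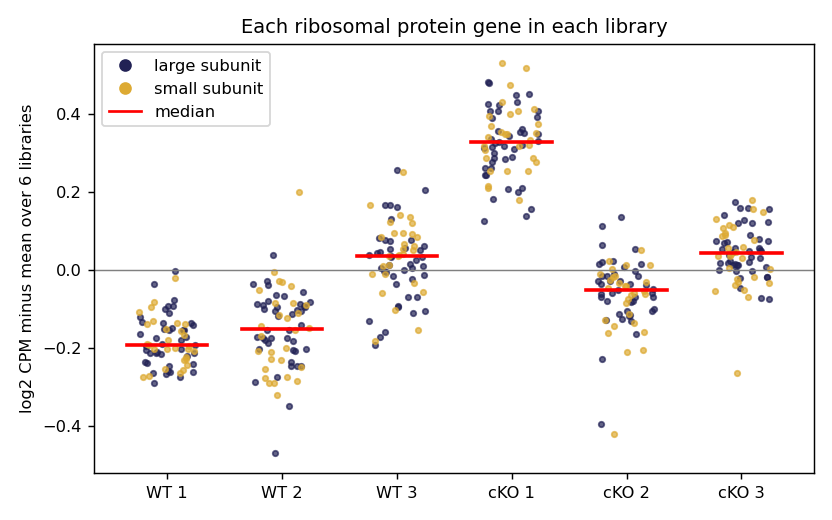
Log2 CPM of each of 72 genes with at least 100 CPM in every library, minus its mean over the 6 libraries, with red lines at the medians (-0.19 in WT 1, -0.15 in WT 2, 0.04 in WT 3, 0.33 in cKO 1, -0.05 in cKO 2 and 0.04 in cKO 3). Large and small subunit genes move together, and in cKO 1 all 72 lie above their mean.

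Other genes with short transcripts shifted in the same libraries. Among 175 genes outside the family with annotated transcripts of up to 700 bases and a mean log2 CPM over 5, the median was 0.29 higher in cKO 1 than in cKO 2 and cKO 3, and 0.14 higher in WT 3 than in WT 1 and WT 2. For the 1827 genes with transcripts over 4000 bases the same medians were -0.14 and -0.06. Between the genotypes, the short genes had a median log2 fold change of 0.10 and the long ones -0.07, beside 0.22 for the ribosomal protein genes. The part of transcript length in the family's values was not tested.

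**Figure D4:**
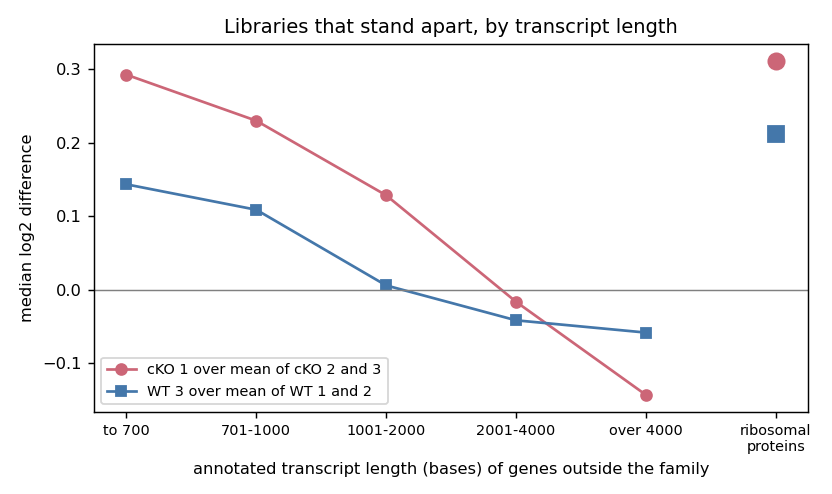
Median log2 difference of cKO 1 from the mean of cKO 2 and 3 (circles) and of WT 3 from the mean of WT 1 and 2 (squares) for genes outside the family, in 5 bins of annotated transcript length, and at the right for the 79 ribosomal protein genes. Both curves fall with length, from 0.29 and 0.14 in the shortest bin to -0.14 and -0.06 in the longest.

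Rpl36 (mm10 chromosome 17, 56613416 to 56614243, plus strand) was called, and encodes a small protein of the large subunit. Its level was 572.2, 468.2 and 480.5 CPM across cKO 1 to 3 and 359.3, 307.5 and 419.5 CPM across WT 1 to 3. All cKO libraries lay above all WT libraries, with WT 3 nearest to them. The estimate of 0.49 ± 0.13 on the log2 scale (SE, n = 3 per group; edgeR, adjusted p = 0.0492) was just inside the threshold. Of the 6 fits that each left out 1 library, only the one without WT 3 kept the call. The edgeR adjusted p was 0.125, 0.0764 and 0.13 without cKO 1, 2 and 3 and 0.177 and 0.161 without WT 1 and WT 2. It was 0.064 with the replicate number as a block and 0.06 with DESeq2 size factors in edgeR. The call was kept by the DESeq2 test (adjusted p = 0.00777), limma-voom (adjusted p = 0.0421) and edgeR with total counts (adjusted p = 0.0133). Upper-quartile scaling (edgeR adjusted p = 0.0481) and the 3 other filters on low counts kept it too. Adding the mean log2 level of the muscle genes as a term to the edgeR model gave an adjusted p of 0.794 (log2 0.31). In that fit the median log2 fold change of the members was 0.31. The summed muscle level was higher in every cKO than in every WT library, so the fit cannot tell muscle level and genotype apart.

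Rpl3l (chromosome 17, 24727820 to 24736143, plus strand) had the largest change. It is the copy of Rpl3 that replaces it in the ribosomes of adult skeletal muscle and heart. Its level was 7.48, 22.2 and 11.4 CPM across cKO 1 to 3 and 2.86, 0.60 and 2.52 CPM across WT 1 to 3. Every cKO library lay above every WT library, and cKO 2 was the highest. The estimate was a log2 difference of 2.77 ± 0.55 (SE, n = 3 per group; edgeR adjusted p = 0.0135), and each of the 6 fits without a library kept the call. The order of the libraries for Rpl3l was that of the summed skeletal muscle transcripts, from cKO 2 (11293 CPM) through cKO 3 (6856 CPM), cKO 1 (5211 CPM), WT 1 (1993 CPM) and WT 3 (1916 CPM) to WT 2 (534.1 CPM). With the muscle level as a covariate in edgeR the estimate was -0.078 ± 0.33 (adjusted p = 0.972), and in that fit 118 genes were called in all. Muscle level and genotype cannot be told apart in that fit.

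**Figure D5:**
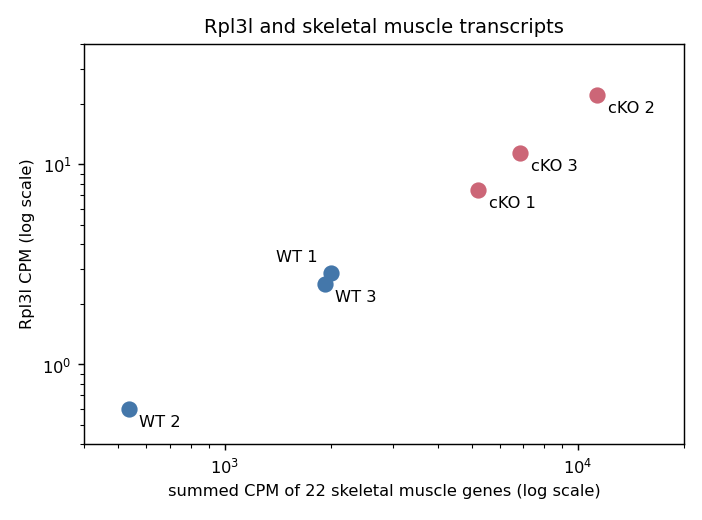
Rpl3l CPM against the summed CPM of 22 skeletal muscle genes in each library, both on log scales. The 6 libraries fall in the same order on both axes, from WT 2 (534.1 and 0.60 CPM) to cKO 2 (11293 and 22.2 CPM).

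The ubiquitous partner Rpl3, which lies near the peptidyl transferase centre, did not pass the test (edgeR adjusted p = 0.805). It stood at 1349, 1159 and 1194 CPM across cKO 1 to 3 and 1179, 1181 and 1206 CPM across WT 1 to 3, so that cKO 2 was below all WT libraries. Its log2 fold change was 0.05 ± 0.10 (95% interval -0.17 to 0.27). Per kb of transcript, Rpl3 averaged 896.6 CPM over the 6 libraries and Rpl3l 5.71 CPM.

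Rps27l (chromosome 9, 66946086 to 66949516, plus strand), a copy of Rps27 known as a p53 target, was 1 of only 2 members with an estimate below 0. It stood at 171.7, 107.6 and 119.9 CPM across cKO 1 to 3 and 141.9, 165.3 and 171.4 CPM across WT 1 to 3. Library cKO 1 was level with the highest WT library, while cKO 2 and cKO 3 were below all WT libraries. The estimate of -0.26 ± 0.17 (log2) missed the threshold (edgeR adjusted p = 0.387), but without cKO 1 it was -0.49 and was called lower (edgeR adjusted p = 0.034). Rps4l, a copy of the X-linked Rps4x, had 37.6 to 51.1 CPM over the 6 libraries and a log2 fold change of 0.16 ± 0.13. Rps4x itself ranged from 1498 to 1813 CPM (log2 0.13 ± 0.10). Rpl39l, known from male germ cells, was near the limit of counting at 0.45 to 0.91 CPM, against 529.6 to 969.7 CPM for its partner Rpl39, a small protein of the peptide exit tunnel (log2 0.12 ± 0.21). Rpl10 had the smallest positive change, a log2 fold change of 0.02 ± 0.14.

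The P stalk, the flexible arm of the large subunit that recruits the translation factors, had 3 of its 4 members free of overlap between the groups, all higher, and 0 called, against 15.3% and 10.9% of all genes and 19 and 2 of the 79 members (edgeR; 3 had an unadjusted p under 0.05, and DESeq2 called Rplp1). Rplp1, the most abundant member per kb of transcript at 3878 CPM, stood at 2659, 1931 and 2072 CPM across cKO 1 to 3 and 1636, 1607 and 1704 CPM across WT 1 to 3. All cKO libraries lay above all WT libraries, and the WT libraries were close together. The log2 difference of 0.43 ± 0.13 missed the threshold (edgeR adjusted p = 0.0725); it was called with DESeq2 (adjusted p = 0.0136) and with total counts (edgeR adjusted p = 0.0217). Its dimer partner Rplp2 was 0.30 ± 0.10 higher in log2 (edgeR adjusted p = 0.112), and Rpl12, at the base of the stalk, 0.37 ± 0.14 (edgeR adjusted p = 0.137). Rplp0, which anchors both dimers, was among the most abundant transcripts of the family and had the smallest estimate of the 4, at 2837 ± 142.6 CPM in cKO and 2620 ± 119.6 CPM in WT (SD, n = 3 each; log2 0.12 ± 0.10).

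Rpl5 and Rpl11, which form a particle with 5S rRNA and bind Mdm2 when ribosome assembly is disturbed, overlapped between the groups, with 0 of 2 called or under an unadjusted p of 0.05 by edgeR and 0 called by DESeq2. Rpl5 stood at 963.6 to 1186 CPM in cKO and 967.9 to 1077 CPM in WT, with a log2 fold change of 0.07 ± 0.11. Rpl11 stood at 796.0 to 1050 CPM in cKO and 734.1 to 886.4 CPM in WT, with one of 0.20 ± 0.13. Of 8 proteins that line or surround the exit tunnel, 0 were called by edgeR, 0 had an unadjusted p under 0.05 and DESeq2 called none of them, with a median log2 fold change of 0.18.

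In the small subunit, Rps6, whose protein is phosphorylated downstream of mTORC1, stood at 1593, 1258 and 1341 CPM across cKO 1 to 3 and 1146, 1114 and 1320 CPM across WT 1 to 3. WT 3 lay above cKO 2, and the log2 difference of 0.23 ± 0.12 missed the threshold (edgeR adjusted p = 0.295; 95% interval -0.05 to 0.50). Rps28 had the highest estimate of the subunit, from 379.8 ± 41.2 CPM in WT to 493.2 ± 66.8 CPM in cKO (SD, n = 3 each; log2 0.38 ± 0.12, edgeR adjusted p = 0.0937), and it was called by DESeq2 (adjusted p = 0.0419) and with total counts (edgeR adjusted p = 0.0232). Rps12, Rps29 and Rps15 were the most abundant per kb of transcript, at 3488, 2091 and 1964 CPM, with log2 fold changes of 0.33 ± 0.14, 0.22 ± 0.17 and 0.29 ± 0.12. In the large subunit Rplp1 was followed by Rpl41 at 3193 CPM (log2 0.11 ± 0.14) and Rpl23a at 2108 CPM (0.15 ± 0.12). Of 14 proteins of the head of the subunit, 0 were called by edgeR, 3 had an unadjusted p under 0.05, DESeq2 called Rps28, and the median was 0.23.

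Ribosomal protein rows do not all measure their mRNA equally well. Rpl26, Rpl30, Rpl34 and Rps27 are not among the restricted copies, but had mean levels under 100 CPM. Over the 6 libraries Rpl26 stood at 0.75 to 1.29 CPM and Rpl30 at 3.48 to 6.31. Rpl34 stood at 14.0 to 25.1 and Rps27 at 1.30 to 2.34. The 71 members named above averaged 434.5 to 2728 CPM. Processed copies of ribosomal protein genes are scattered over the mouse genome, and 49 of the 79 share more than 50% of their transcript's 50-base windows with transcripts of other annotated genes. The share was 98.6% for Rps27, 76.4% for Rpl30, 71.3% for Rpl26 and 50.6% for Rpl34, but it was also 93.8% for the well counted Rpl5, and 81.1% for Rpl36. It was 0% for Rpl3l. The cause of the 4 low rows was not tested, the sources used here do not give the read length, and values of genes with a high share are uncertain where reads could be given to a copy. The low Rpl30 row differed by 0.62 ± 0.19 in log2, which missed the threshold (edgeR adjusted p = 0.0782). All its cKO libraries lay above all its WT libraries, and it was called by DESeq2 and by edgeR with total counts.

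Of 230 genes that work with the ribosome, tested in 8 lists, edgeR called 8 (7 higher, 1 lower), while 4.77% of all genes were called higher and 6.17% lower. DESeq2 called 13 of the 230 and 2254 of all 14789 genes. Of 7 tested ribosomal proteins and close relatives outside the naming pattern, 0 were called by edgeR 2 had an unadjusted p under 0.05 and DESeq2 called 0 (median log2 0.17). Their sum was 6475, 5195 and 5269 CPM across cKO 1 to 3 and 4672, 5047 and 4917 CPM across WT 1 to 3, highest in cKO 1. Rpsa, of the small subunit, went from 1656, 1800 and 1691 CPM across WT 1 to 3 to 2235, 1976 and 1950 CPM across cKO 1 to 3 (log2 0.26 ± 0.10, edgeR adjusted p = 0.147). Of 77 mitochondrial ribosomal proteins, 2 rose, Mrpl4 (log2 0.41 ± 0.10) and Mrpl42 (0.29 ± 0.08), and the median was 0.13. DESeq2 called 5 of the 77 (Mrpl4, Mrpl42, Mrpl38, Mrps12 and Mrps9), and limma-voom called Mrpl4 and Mrps9 but not Mrpl42. An unadjusted edgeR p under 0.05 was found for 13 of the 77, against 3641 of all 14789 genes. The groups did not overlap for 22 higher and 2 lower in cKO, against 15.3% and 15.8% of all genes.

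Among 10 elongation factors, 2 rose, while 4.77% of all genes were called higher. Eef1a2, the form of EF1A found in muscle and neurons, stood at 20.7, 59.2 and 30.6 CPM across cKO 1 to 3 and 11.5, 5.57 and 8.92 CPM across WT 1 to 3 (log2 2.08 ± 0.39, edgeR adjusted p = 0.0104), in the library order of Rpl3l and of the muscle sum. The common form Eef1a1, itself a TOP mRNA, had a log2 fold change of 0.04 ± 0.11. Eef2k, the kinase that inhibits elongation, rose by a log2 fold change of 0.43 ± 0.11. Of 34 initiation factors, Eif4g3 rose (log2 0.38 ± 0.09) and Eif1, which guides start codon choice, fell from 1321 ± 196.0 to 886.6 ± 103.7 CPM (log2 -0.58 ± 0.14, edgeR adjusted p = 0.0267).

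Of 50 ribosome assembly factors, 1 rose, Nop56, a core protein of box C/D snoRNPs (log2 0.36 ± 0.10, edgeR adjusted p = 0.0458), and the median was 0.13. An unadjusted edgeR p under 0.05 was found for 9 of the 50, against 3641 of all 14789 genes. The groups did not overlap for 16 higher and 2 lower in cKO, against 15.3% and 15.8% of all genes. Of all genes, edgeR called 4.77% higher and 6.17% lower. Of 15 genes of RNA polymerase I and its factors, which make ribosomal RNA, 0 were called by edgeR and 1 had an unadjusted p under 0.05, with 0 called by DESeq2 (median 0.07). Of 22 genes of mTORC1 signalling and translation control, 1 rose: Mycn, a relative of Myc that drives ribosome genes, with 38.3, 43.9 and 38.9 CPM across cKO 1 to 3 and 28.1, 28.3 and 23.7 CPM across WT 1 to 3 (log2 0.60 ± 0.11, edgeR adjusted p = 0.00993). Myc, at 0.53 ± 0.17 in log2, missed the threshold (edgeR adjusted p = 0.0911). DESeq2 called 3 of the 22, Mycn, Myc and Rheb, and limma-voom only Mycn. Of 15 snoRNA host genes, many of which are TOP transcripts, 0 were called by edgeR and 3 had an unadjusted p under 0.05, with 0 called by DESeq2 (median 0.25).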

How the data were processed

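Each deposited file gives, for 1 library, the raw count of reads on every gene symbol. Per the submitters' processing notes, reads were aligned with TopHat2 2.0.13 to mm10 and counted with HTSeq; the sources used here do not give the annotation or strand setting. Reads given to no gene (12.1% to 14.3% of all counts) and shared between genes (1.64% to 2.82%) stayed out of library sizes and tests. All 6 libraries were compared with edgeR 4.0.16 (R 4.3.3; filterByExpr, TMM scaling, quasi-likelihood test, group as the only term), and p-values were adjusted by Benjamini-Hochberg over all 14789 genes. SEs were derived from the F statistic (estimate over root F). The pipeline was tested on simulated data. Libraries of a group differed by at least 13.4 chi-square per degree of freedom over genes, so none was counted as a duplicate; n = 3 per group.

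Transcript lengths and positions came from GENCODE M21 (GRCm38), using the shortest principal transcript. Members, gene lists, tests and alternatives were chosen with earlier results of these data known. Named were called members, restricted copies and their partners, the 3 most abundant per kb in each subunit, the extremes of each subunit, the P stalk, Rpl5, Rpl11 and Rps6, and up to 3 genes by p from each translation list. The 4 low rows, Eef1a1, the members with printed sequences and the length bins were picked after their values were seen. Alternatives were DESeq2 1.42.0, limma-voom (limma 3.58.1), 3 other scalings, 3 other filters, a replicate block, a muscle covariate and leaving out each library. One more, leaving out cKO 1 and WT 3 together, was added after the data had been seen. The promoter run length and motifs were chosen after 10 run settings and 12 motifs had been looked at. Some genes are not reported here by name, and the plot of fold changes leaves out 1 of them.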

Additional observations from a re-analysis of the deposited data

How the results depend on the processing

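The median log2 fold change of the 79 ribosomal protein genes was above 0 in all 17 alternatives. In the 6 fits leaving out 1 library it ranged from 0.10 (without cKO 1) to 0.30 (without cKO 2), and the log2 ratio of the sums from 0.09 to 0.28. The number of members with positive estimates was 65 without cKO 1 and 70 without WT 1. Called members numbered 2 and, leaving out 1 library, 1 to 2 (large subunit 1 to 2, small subunit 0 to 1, the named members 1 to 2). With total counts 16 were called (12 large, 4 small, 7 of the named), with DESeq2 7 (5 large, 2 small, 4 named), with DESeq2 size factors 1 (1 large, 1 named) and with the muscle covariate 0 (0 large, 0 named). Total counts moved the median of all genes from 0.02 to 0.15, and their calls over all genes were 1273 higher and 606 lower, against 706 and 912. Over all genes 1618 were called, 2254 with DESeq2, 118 with the muscle covariate and 735 to 2195 leaving out 1 library. In the other translation lists the 8 calls became 23 with total counts, 13 with DESeq2, 0 with the muscle covariate and 2 to 9 leaving out 1 library. With the muscle covariate, which cannot be told apart from genotype here, Rpl3l was at a log2 fold change of -0.078. Leaving out cKO 1 and WT 3 together was chosen after seeing the data, by the levels of the ribosomal protein genes themselves, which narrows their spread within the groups: 16 members (10 large, 6 small, 8 named), 17 genes of the other lists and 2902 of all genes were called, the members' median was 0.17, and Rps27l was called lower (-0.43). These calls are given because the fit was run and support nothing. With the replicate block 1 member was called (1 large, 1 named), 2 genes of the other lists and 1104 of all genes. The deviations of same-numbered libraries from their group means correlated at -0.21, -0.12 and 0.07. With 3 libraries per group and no pairing given by the labels, these values cannot show whether the numbers pair mice. What caused the differences between the fits was not tested. Leaving out 1 library leaves 2 in a group, and for genes with few counts depth limits the precision.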
